A study of Homo sapiens with 3 samples.

Results

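The miRNAs miR-10a, miR-10b, miR-196a and miR-196b are encoded within the HOX gene clusters, and 3 strains of the hepatocellular carcinoma (HCC) line HCCLM3, of human origin, were examined for their reads. Members were chosen by name, taking every arm listed for these 4 miRNAs, which gave 8 of the 1921 listed miRNA names. An arm is the strand cut from the 5p or the 3p side of a hairpin precursor. Of the 8 names, 6 were detected in at least 1 library, and 1 reached a mean level of 10 CPM (counts per 1000000 counts of the library). That name was hsa-miR-10a-5p, which alone held 97.8%, 99.5% and 99.4% of the members' counts in the parent, subclone1 and subclone2. Values in sets of 3 are given in this order throughout.

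The strains were the parent, labelled as having low metastasis, subclone1, labelled for metastasis to lung, and subclone2, labelled for metastasis to both lung and celiac lymph node. All were grown in DMEM without any other labelled treatment, and each gave 1 small RNA library. The study's text derives its subclones from single cells of lung or lymph node metastases of a red fluorescent HCCLM3 line with high metastatic potential, and "low" therefore only repeats the label of the parent library. Which of its clones were sequenced is not given by the labels, and each subclone may stand for 1 cell's descendants. The libraries held 3570864 to 7902438 counts, and the limit that a count of 0 sets, taken as 3 counts, was 0.380, 0.840 and 0.657 CPM. With 1 library per strain no test was possible, and the ratios compare libraries rather than conditions. All intervals are exact 95% intervals and cover counting error only.

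HOX genes encode transcription factors that set position along the body axis, and they lie in 4 clusters named HOXA to HOXD. The miR-10 genes sit near the HOX4 genes of the HOXB and HOXD clusters, and the miR-196 genes sit among the posterior genes of the HOXA, HOXB and HOXC clusters. A miRNA guides Argonaute proteins to messenger RNAs mainly through its seed, bases 2 to 8 from the 5′ end. miR-196 is known to target HOXB8, and miR-10b is best known for its study in metastasis of breast cancer.

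The mature sequences are shown because related members can be confused with each other in short reads. They are from RefSeq (GRCh38.p14), whose table held 7 of the 8 member names, and capitals mark the seed.
hsa-miR-10a-5p: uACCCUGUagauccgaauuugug
hsa-miR-10a-3p: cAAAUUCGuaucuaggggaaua
hsa-miR-100-5p: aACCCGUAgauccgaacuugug
hsa-miR-99b-5p: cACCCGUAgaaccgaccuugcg
hsa-miR-196a-5p: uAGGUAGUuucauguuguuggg
hsa-miR-196b-5p: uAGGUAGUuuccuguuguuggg
hsa-let-7a-5p: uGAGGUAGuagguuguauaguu
The pair hsa-miR-196a-5p and hsa-miR-196b-5p shared their seed and differed by 1 base of 22, A12C, with positions counted from the 5′ end and the miR-196a base first. How their reads were told apart is not given in the sources used here. hsa-miR-10a-5p shared 11 consecutive bases with hsa-miR-100-5p, at bases 7 to 17, but their seeds differed. The seed of miR-196 occurred in hsa-let-7a-5p shifted by 1 base, at bases 3 to 9, and no longer run was shared. The remaining member name is hsa-miR-10b-5p. miR-10a and miR-10b are known to share their seed and to be nearly identical, so the counts of both are uncertain as to which name their reads belong to.

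The hairpins were placed with the GENCODE release 29 annotation of GRCh38, since the count tables give no coordinates. MIR10A (chromosome 17, 48579838 to 48579947, minus strand) lay in an intron of HOXB3 and overlapped an untranslated part of HOXB4 on the same strand. MIR10B (chromosome 2, 176150303 to 176150412, plus strand) lay in an intron of HOXD3, before HOXD4. MIR196B (chromosome 7, 27169480 to 27169563, minus strand) overlapped a non-coding exon annotated to HOXA9. The name hsa-miR-196a-5p has 2 sources. They are MIR196A1 in an intron of HOXB7 (chromosome 17, 48632490 to 48632559, minus strand) and MIR196A2 in an intron of HOXC6 (chromosome 12, 53991738 to 53991847, plus strand), and its counts cannot be divided between them.

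**Figure D1:**
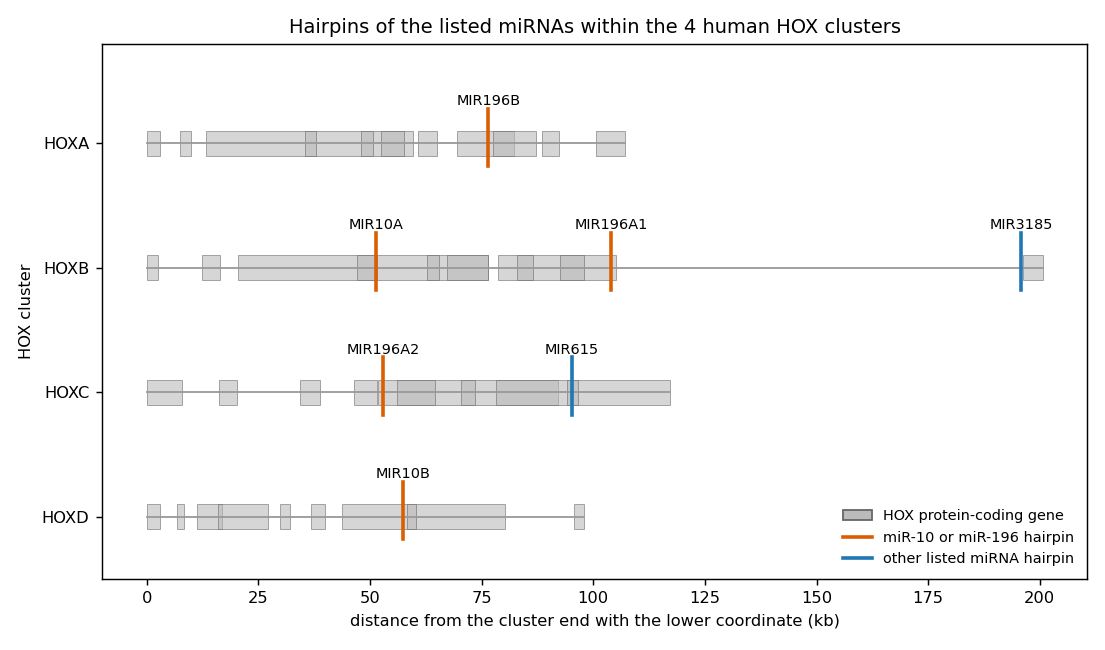
Positions of the listed miRNA hairpins within the 4 HOX clusters, with each cluster on its own line and the horizontal axis giving kb from its lower-coordinate end. Grey boxes are HOX protein-coding genes, orange lines are the 5 miR-10 and miR-196 hairpins, and blue lines are MIR615 and MIR3185; MIR10A and MIR196A1 share the HOXB cluster.

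The question the libraries address is which small RNAs differ between strains with different organ tropism. The one abundant HOX cluster miRNA was higher in both subclones than in the parent. hsa-miR-10a-5p had 1405, 2190 and 3178 counts. Scaled to the totals, these were 178 CPM (interval 169 to 187), 613 CPM (588 to 640) and 696 CPM (672 to 720). Neither subclone's interval overlapped that of the parent, nor did the intervals of the subclones overlap each other. At such counts the intervals are narrow, and those of hsa-miR-100-5p also separated each pair of libraries. The separation is therefore not particular to hsa-miR-10a-5p, and the share of all miRNAs that show it was not counted. By read count hsa-miR-10a-5p was the 72nd most abundant miRNA of the parent library, the 41st of subclone1 and the 39th of subclone2.

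In subclone1 the level of hsa-miR-10a-5p was 3.45-fold that of the parent (interval 3.22 to 3.69), a log2 ratio of 1.79. Among the 192 miRNAs whose mean level in this pair of libraries was 10 CPM or more, 13.0% differed at least 2-fold, 9.9% being higher. The ratio of hsa-miR-10a-5p had rank 4 from the top, and the 25th and 75th percentiles of all log2 ratios were -0.30 and 0.40. In subclone2 the level was 3.91-fold that of the parent (3.67 to 4.17), a log2 ratio of 1.97, which also had rank 4, of 187 miRNAs. In that comparison 10.7% differed at least 2-fold and 5.88% were higher. All kept miRNAs had a median of -0.15 in this comparison, and hsa-miR-10a-5p lay 2.12 above it. Both comparisons use the one parent library, so their ratios are not independent of each other.

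The subclones differed far less from each other. hsa-miR-10a-5p was 1.13-fold higher in subclone2 than in subclone1 (1.07 to 1.20), a log2 ratio of 0.18, whereas 5.76% of 191 miRNAs differed at least 2-fold. Of these, 3 were higher and 8 lower, or 3 and 5 with TMM or median-of-ratios scaling. The median of all kept miRNAs here was -0.17, and TMM scaling moved it by 0.23. The log2 ratio of hsa-miR-10a-5p was then 0.41, so its size depended on the scaling while its direction did not.

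**Figure D2:**
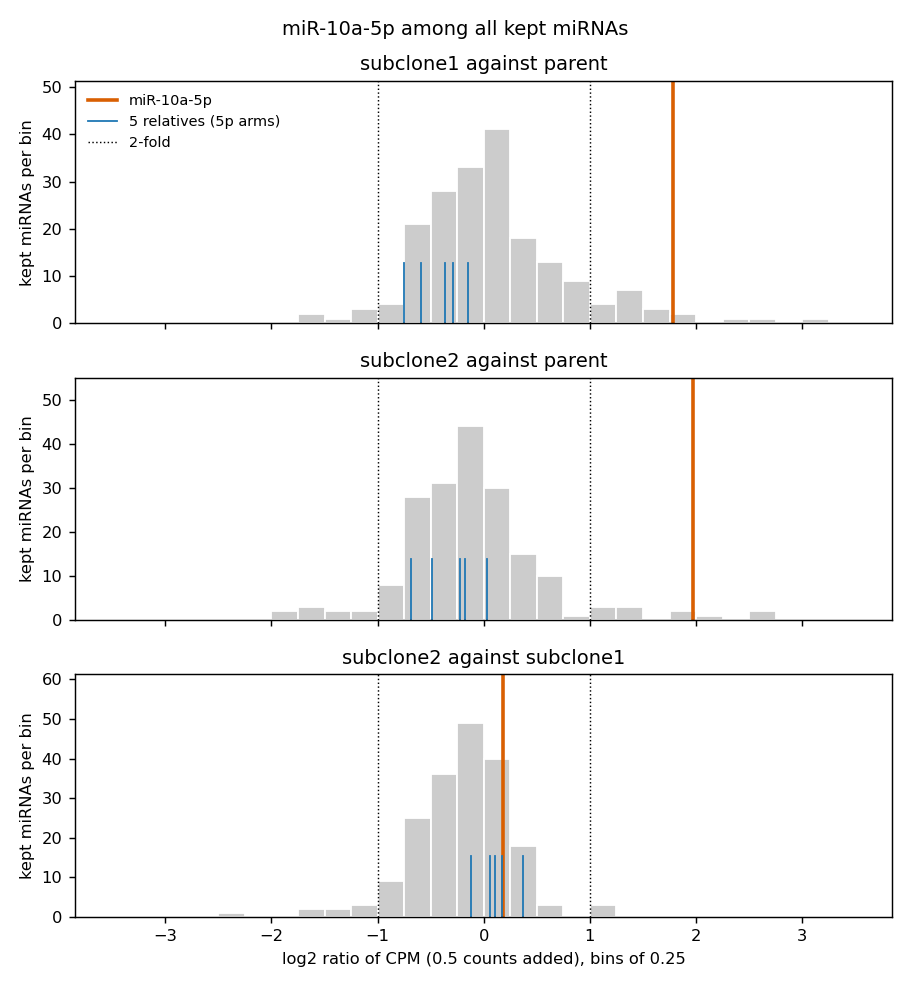
Log2 ratios of CPM for all kept miRNAs in each comparison (horizontal axis, bins of 0.25; vertical axis, number of miRNAs), with hsa-miR-10a-5p in orange, its 5 family relatives as short blue lines and the 2-fold threshold dotted. hsa-miR-10a-5p lies at 1.79 and 1.97 against the parent and at 0.18 between the subclones.

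The other arm of the same hairpin was scarce in every library. hsa-miR-10a-3p had 6, 5 and 8 counts, or 0.759, 1.40 and 1.75 CPM. The order of these levels followed that of the 5p arm, but the counts could not separate them. The ratio of CPM to the parent was 1.84 in subclone1 (0.445 to 7.25) and 2.31 in subclone2 (0.702 to 8.07), and both intervals held 1 as well as the ratio of the 5p arm. The 5p arm held 99.6% (99.1 to 99.8), 99.8% (99.5 to 99.9) and 99.7% (99.5 to 99.9) of the counts of this hairpin. No difference in arm use was detectable at this depth. Ligation favours some RNA ends, so these shares describe reads and not molecules.

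The HOXD cluster miRNA miR-10b was close to the limit of detection. hsa-miR-10b-5p had 5, 1 and 0 counts, and hsa-miR-10b-3p had 0 in each. The parent level was 0.633 CPM (0.205 to 1.48) and that of subclone1 was 0.280 CPM (0.00709 to 1.56), a ratio of 0.443 with an interval of 0.00936 to 3.96. No ratio was formed for subclone2 because its count was 0, and the limit for that count, 0.657 CPM, lay above the parent level. A difference between the strains was not detectable. Within the counts of both 5p names, hsa-miR-10a-5p held 99.6% (99.2 to 99.9), 99.95% (99.7 to 99.999) and 100% (99.9 to 100). These shares follow the names as counted and do not depend on how the libraries are scaled. Reads of either miRNA counted under the other's name cannot be seen in them. With all arms of miR-10a and miR-10b summed, the log2 ratio to the parent was 1.78 in subclone1 and 1.96 in subclone2.

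The miR-196 members were also near the limit. hsa-miR-196b-5p, from the HOXA cluster, was the most frequent, with 14, 5 and 6 counts. These were 1.77 CPM (0.969 to 2.97), 1.40 CPM (0.455 to 3.27) and 1.31 CPM (0.482 to 2.86), with all intervals overlapping. Its ratio of CPM to the parent was 0.790 in subclone1 (0.223 to 2.32) and 0.741 in subclone2 (0.234 to 2.05). Its 3p arm had 4, 0 and 2 counts. hsa-miR-196a-5p had 2, 1 and 2 counts, and hsa-miR-196a-3p, which the reference gives only to MIR196A2, had 0 in every library. For miR-196a both sides of each comparison lay at or under 3 counts, so no ratio was given. Because the pair differs at a single base, the counts of hsa-miR-196a-5p are uncertain even as counts.

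**Figure D3:**
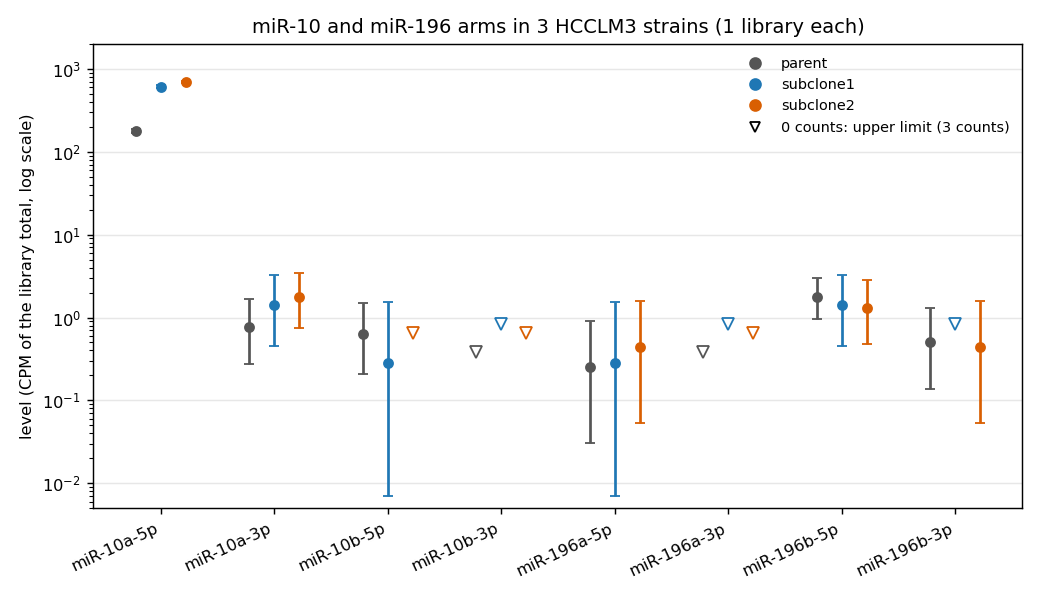
Level of each member arm in each strain (vertical axis, CPM on a log scale; 1 point per library with its exact 95% counting interval). Open triangles mark 0 counts at the upper limit of 3 counts; hsa-miR-10a-5p lies at 178 to 696 CPM and every other arm below 2 CPM.

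Summed by locus, the HOXB cluster hairpin MIR10A gave 179 CPM (169 to 188), 615 CPM (589 to 641) and 697 CPM (673 to 722). MIR196B of the HOXA cluster gave 2.28, 1.40 and 1.75 CPM, and MIR10B of the HOXD cluster gave the levels of its 5p arm. Without hsa-miR-10a-5p the other 7 member names together had 31, 12 and 18 counts, or 3.92 CPM (2.67 to 5.57), 3.36 CPM (1.74 to 5.87) and 3.94 CPM (2.34 to 6.23). The intervals of these sums overlapped in all 3 libraries.

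Other miRNAs of the HOX clusters were examined from the annotation. hsa-miR-615, from introns of HOXC4 and HOXC5, and hsa-miR-3185, beside HOXB13, were the other listed miRNAs between the outermost HOX genes of a cluster. hsa-miR-615-5p had counts of 1, 2 and 1. hsa-miR-615-3p had 0, 3 and 2 counts, and hsa-miR-3185 had 0 in each. None of these 3 names reached 10 CPM, so none entered a comparison. In the HOXB cluster, MIR10A was therefore the only hairpin with a listed name above 10 CPM.

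Outside the HOX clusters, the 5p arms of the miRNAs counted with miR-10 in one wider family were lower in the subclones or changed little. Of these miRNAs, miR-99a, miR-99b and miR-100 share a seed that differs from that of miR-10a, and miR-125a and miR-125b share another. hsa-miR-99b-5p had 773, 460 and 480 CPM. hsa-miR-100-5p had 451, 299 and 387 CPM, and hsa-miR-99a-5p had 272, 222 and 239 CPM. All 3 names of this seed were thus lower in both subclones, though by less than 2-fold. In subclone2 their log2 ratios of -0.69, -0.22 and -0.18 shrank to -0.52, -0.05 and -0.01 with TMM scaling, so the last 2 were near 0. Of the family's 6 other listed arms, 2 were kept. They were hsa-miR-99b-3p (29.7, 33.9 and 23.9 CPM) and hsa-miR-125b-2-3p (20.2, 21.8 and 14.0 CPM). Both were slightly higher in subclone1 than in the parent, with ratio intervals that held 1. Both were lower in subclone2, where the ratio interval of hsa-miR-99b-3p held 1 (0.633 to 1.01) and that of hsa-miR-125b-2-3p did not (0.510 to 0.930). Their log2 ratios there, -0.31 and -0.52, are without TMM scaling, which raised the median of that comparison by 0.17.

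hsa-miR-125a-5p had 356, 276 and 254 CPM. hsa-miR-125b-5p had 138, 124 and 141 CPM, with the intervals of all libraries overlapping. Of the 5p arms of the 5 relatives, 0 differed at least 2-fold in any comparison. Few of all kept miRNAs did so either: 13.0% (subclone1 to parent), 10.7% (subclone2 to parent) and 5.76% (subclone2 to subclone1). With shares this low, 0 of 5 names does not set the relatives apart from other miRNAs. The median log2 ratio of the relatives' 5p arms was -0.37 in subclone1, beside 0.02 for all kept miRNAs, and -0.22 in subclone2, beside -0.15. By read count hsa-miR-10a-5p had rank 5 among these 6 names in the parent and rank 1 in both subclones. It held 10.6% of the reads of miR-10a, miR-99a, miR-99b and miR-100 in the parent (10.1 to 11.2), but 38.5% (37.2 to 39.7) and 38.6% (37.6 to 39.7) in the subclones. On this measure, which is free of the library total, the subclones' intervals overlapped. The share also depends on the 5p arms of miR-99a, miR-99b and miR-100, which together had 1495, 981 and 1106 CPM.

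**Figure D4:**
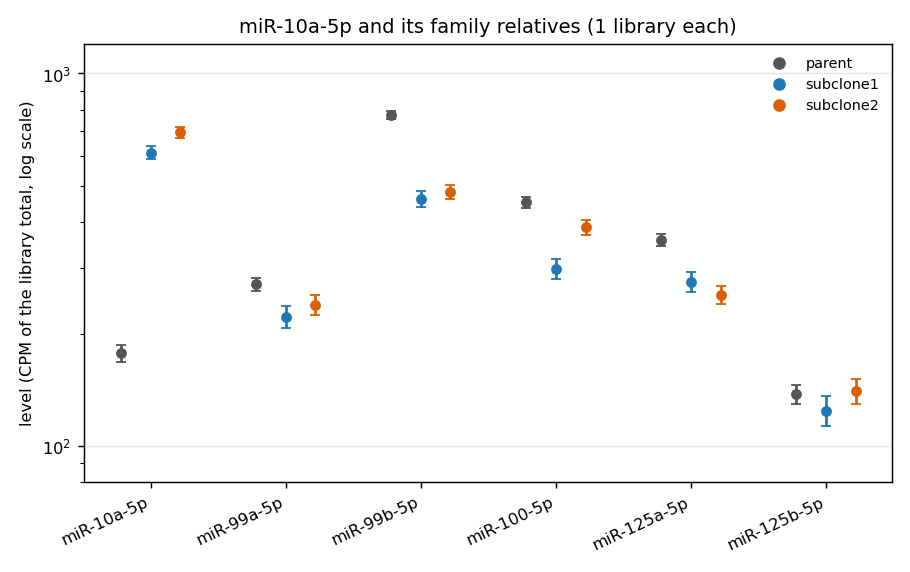
Level of hsa-miR-10a-5p and of the 5p arms of its 5 family relatives (vertical axis, CPM on a log scale; 1 point per library with its exact 95% counting interval). hsa-miR-10a-5p is higher in both subclones than in the parent, whereas miR-99a, miR-99b, miR-100 and miR-125a are lower and the intervals of miR-125b overlap. The lower levels of miR-99a and miR-100 in subclone2 nearly vanish with TMM scaling.

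The miRNAs nearest to hsa-miR-10a-5p in pattern were found by the distance between their pairs of log2 ratios to the parent, among 192 miRNAs and over 3 libraries. hsa-miR-192-5p, abundant in liver and gut epithelium, was nearest at a distance of 0.11, with 18528, 60246 and 69068 CPM. The other 4 were much farther, at 0.72 to 0.77. They were hsa-miR-675-5p (5.69, 27.4 and 32.6 CPM), processed from the imprinted H19 transcript, hsa-miR-1269b (29.5, 69.2 and 80.1 CPM), hsa-miR-215 (21.8, 59.1 and 137 CPM) and hsa-miR-146a-5p (14.05, 29.4 and 66.8 CPM). The last 2 share 18 bases with hsa-miR-192-5p and 17 with hsa-miR-146b-5p, so their levels are uncertain. hsa-miR-1269b shares its first 12 bases with hsa-miR-1269a.

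The cell type of the libraries was checked with miRNA markers. Of 5 hepatocyte markers, hsa-miR-885-5p was at 0 in all libraries, and hsa-miR-122-5p, the defining miRNA of hepatocytes, had only 6.71, 5.32 and 3.94 CPM. Their summed level of 18646, 60529 and 69340 CPM was nearly all hsa-miR-192-5p and moved with hsa-miR-10a-5p. Its part in the result was not tested. The 6 blood cell markers summed to 0.633 to 1.68 CPM, with 3 or 4 names at 0, and the 2 endothelial markers to 0.438 to 2.24 CPM. The 5 markers of fibroblasts and smooth muscle summed to 2.19 to 4.94 CPM, highest in the parent, with 2 or 3 names at 0. The 3 striated muscle markers summed to 7.59, 23.2 and 7.88 CPM, mostly hsa-miR-1. What such other cell types might add to the level of hsa-miR-10a-5p was not tested.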

How the data were processed

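Small RNA of 3 HCCLM3 strains was sequenced from Trizol RNA with the Illumina TruSeq Small RNA kit. The authors deposited unscaled read counts per mature miRNA name, 1 library per strain. The submitters' processing notes name CASAVA 1.4 and hg19. Trimming, aligner, mismatch limit, miRBase release and treatment of shared reads are not given in the sources used here. The members and lists were chosen with earlier results of these data known.

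Counts were scaled to the library total. miRNAs whose mean level in the compared pair was 10 CPM or more were kept, and 0.5 counts were added for log2 ratios. A 2-fold ratio was the size threshold. Intervals of levels and shares were Clopper-Pearson, and those of ratios were conditional binomial, from the counts without the added 0.5. Reads without molecular identifiers are not independent molecules. Alternatives were edgeR 4.0.16 TMM factors, median-of-ratios factors, the total without abundant miRNAs, other minimum levels, folds and pseudocounts, a call that also needed the interval to exclude 1, and summed members. Code was tested on simulated data (Python 3.11.15, scipy 1.17.1). Named miRNAs were the members, other miRNAs of the HOX clusters, family relatives of miR-10, let-7 for shared bases, and the 5 nearest in pattern. Shared bases were sought among the 1576 of 1921 listed names in the RefSeq table.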

Additional observations from a re-analysis of the deposited data

How the results depend on the processing

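No paired analysis was possible because each strain has 1 library, and for the same reason no library could be left out. The higher level of hsa-miR-10a-5p in both subclones than in the parent passed 2-fold under every alternative run for it. Its log2 ratio between the subclones, 0.18, was 0.41 with TMM scaling, 0.40 with median-of-ratios scaling and 0.33 when the 10 leading miRNAs of every library were left out of the totals. Of 35 alternative values of member ratios, the other 32 stayed within their counting interval or on their side of the threshold. For hsa-miR-10b-5p and hsa-miR-196b-5p those intervals are so wide that this says little. The log2 ratio of hsa-miR-10b-5p in subclone1 against the parent, -0.73, became 0.41 with a pseudocount of 5. It became 1.78 with members summed, where hsa-miR-10a-5p gives nearly all counts. The numbers of miRNAs past the threshold, 25 and 20 for subclone1 and subclone2 against the parent and 11 for subclone2 against subclone1, followed the thresholds by construction. They were 7, 5 and 2 with a minimum of 100 CPM, 326, 312 and 333 with no minimum, 56, 50 and 36 at 1.5-fold, and 3, 3 and 1 at 4-fold. Depth limits miR-10b and miR-196, where a few counts per library give ratio intervals that hold both 0.5 and 2.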
